A study of Mus musculus with 20 samples.

Results

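The promoters described here belong to the keratins and to the proteins that surround keratin in hair. They were all the promoters in the deposited table whose gene symbol begins with Krt, which were 106 of 22480. Of these, 52 were promoters of keratins (Krt followed by a number), 51 were promoters of keratin-associated proteins (Krtap), and 3 carried another name (Krtcap2, Krtcap3 and Krtdap). The rule goes by name and uses no measured value.

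The level of each promoter was measured by MBD-seq in sperm DNA of wild-type mice at 8 weeks of age. In this assay a methyl-CpG binding domain captures methylated DNA fragments, which are then sequenced. Each strain, C57BL/6J or FVB/N, gave a control group and a DEHP group, so that there were 4 groups, each of 5 males whose mothers had been gavaged from day 9 to day 19 of gestation. Control mothers received corn oil alone, and the other mothers received corn oil with 300 mg/kg/day of DEHP (bis(2-ethylhexyl)phthalate, a plasticizer). All 10 DEHP libraries were submitted for capture and sequencing apart from all 10 control libraries and were read at another length, so that an effect of treatment and one of submission cannot be told apart, whereas the strains were compared within a submission. Litters are not given in the sources used here, and males of 1 litter would not be independent.

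A level is the authors' mean of normalized read-pairs over a probe of 2200 bases, from 2000 bases before the gene start, and its error is the authors' SD over 5 libraries. It depends on the methylation and on the number of CG sites of the probe, and is no percentage of methylation. Values of single libraries and their depths were not used here. With 5 libraries, no library can lie more than 1.789 SDs from its mean, so 2 groups were called separated where these ranges, widened for rounding, did not meet. This call is a lower limit on groups that do not overlap, and no test was run. Log2 ratios are those of the means with a pseudocount of 1, which understates the ratio of low promoters.

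Sperm was released from the epididymis and vas deferens, where epithelial cells that express simple keratins are the neighbouring cell type, and preparations with somatic cells were discarded under the microscope. Imprinted promoters were read as a check of the label. H19, methylated on the paternal copy, had a level of 25.3 (SD 7.3) in C57BL/6J controls and 18.8 (SD 5.7) in FVB/N controls. Of 7 promoters of genes that are methylated in the egg and not in sperm, Snrpn had 0.5 and 1.1, Mest 2.3 and 2.4, and Peg10 2.1 and 2.7 in the same groups. Kcnq1ot1 had 3.9 and 2.3, Plagl1 3.3 and 3.5, and Peg3 5.4 and 4.2. Nnat went against the label with 26.5 and 18.1. Rasgrf1, methylated on the paternal copy, had 2.4 and 3.7, over a probe that may not hold its methylated region. Meg3, methylated on the paternal copy as well, had 25.8 and 7.0. The probes of H19 and Meg3 may not hold the regions methylated in sperm either. The median of the 7 was 3.3 in C57BL/6J controls and 2.7 in FVB/N controls, beside 5.0 and 3.0 over all promoters. The 7 were thus lower than promoters in general in C57BL/6J and near them in FVB/N, so the check is weak. Of these 10 promoters only that of Snrpn was separated after DEHP, beside 0.249% of all promoters with DEHP above control in C57BL/6J. The level of Snrpn rose to 4.0 (SD 1.0) in C57BL/6J, with 4.4 (SD 1.2) in FVB/N. Its part in the results below was not tested.

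Keratins are the intermediate filament proteins of epithelia. A filament is built of pairs of an acidic type I and a basic type II keratin, and each epithelium uses its own pairs: KRT8 with KRT18 in simple epithelia, KRT5 with KRT14 in basal cells of the epidermis, KRT1 with KRT10 in the layers above, and a separate series of hair keratins in the hair shaft. Keratin-associated proteins are small proteins rich in cysteine, or in glycine and tyrosine, which crosslink the hair keratins into a hard fibre. In the mouse, type I keratin genes lie together on chromosome 11, type II genes on chromosome 15 with the type I gene Krt18 at their edge, and keratin-associated protein genes in several clusters of short genes. Most of these genes are known for skin, epithelia and hair and not for sperm. Sperm DNA is methylated over most of the genome outside promoters dense in CG.

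Promoter sequences are shown for 7 members, because the 2 families differ in how many CG sites there are to be captured. Sequences run from 250 bases before to 50 bases after the gene start in RefSeq (GRCm38.p6) and are printed 5′ to 3′ on the strand of the gene, with each CG site in capitals. Krt18 holds the most CG sites among Krt probes, Krt42 was the promoter separated after DEHP, and Krt10 and Krtap4-2 were those separated between strains. Krtap10-4 holds the most CG sites among Krtap probes, Krtap20-2 is 1 of the 2 with the fewest, and Krtap27-1, chosen after its values were seen, had the highest ratio after DEHP in FVB/N.
Krt18 (chr15:102027966-102028265, plus strand): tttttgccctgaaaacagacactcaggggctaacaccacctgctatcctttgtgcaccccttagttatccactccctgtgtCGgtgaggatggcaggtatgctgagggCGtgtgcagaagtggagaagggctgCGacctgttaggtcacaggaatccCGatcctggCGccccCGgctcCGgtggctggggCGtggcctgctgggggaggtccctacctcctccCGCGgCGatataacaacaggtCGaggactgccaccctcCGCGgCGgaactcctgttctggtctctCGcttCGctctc
Krt42 (chr11:100269902-100270201, minus strand): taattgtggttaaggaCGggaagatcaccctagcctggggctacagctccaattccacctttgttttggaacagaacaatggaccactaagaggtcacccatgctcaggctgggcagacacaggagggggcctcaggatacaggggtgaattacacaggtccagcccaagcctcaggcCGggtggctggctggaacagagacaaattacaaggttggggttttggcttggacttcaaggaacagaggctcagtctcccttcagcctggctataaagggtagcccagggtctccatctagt
Krt10 (chr11:99389315-99389614, minus strand): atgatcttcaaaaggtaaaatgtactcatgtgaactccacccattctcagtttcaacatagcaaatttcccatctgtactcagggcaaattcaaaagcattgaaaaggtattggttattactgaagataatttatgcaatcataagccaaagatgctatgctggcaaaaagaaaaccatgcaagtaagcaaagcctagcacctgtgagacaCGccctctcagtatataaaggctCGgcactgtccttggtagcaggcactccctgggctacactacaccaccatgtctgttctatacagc
Krtap10-4 (chr10:77827021-77827320, minus strand): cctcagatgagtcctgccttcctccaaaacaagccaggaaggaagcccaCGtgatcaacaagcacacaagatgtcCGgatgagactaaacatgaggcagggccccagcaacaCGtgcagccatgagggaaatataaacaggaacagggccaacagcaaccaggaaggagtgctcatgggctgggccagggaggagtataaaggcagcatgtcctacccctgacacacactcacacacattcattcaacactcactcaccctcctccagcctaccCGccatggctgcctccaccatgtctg
Krtap20-2 (chr16:89205611-89205910, plus strand): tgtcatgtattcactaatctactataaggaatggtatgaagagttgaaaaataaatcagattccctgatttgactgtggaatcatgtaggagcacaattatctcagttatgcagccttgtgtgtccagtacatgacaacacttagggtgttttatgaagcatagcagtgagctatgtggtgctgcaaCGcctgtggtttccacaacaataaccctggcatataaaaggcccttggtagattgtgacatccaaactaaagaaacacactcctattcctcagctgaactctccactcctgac
Krtap4-2 (chr11:99635035-99635334, minus strand): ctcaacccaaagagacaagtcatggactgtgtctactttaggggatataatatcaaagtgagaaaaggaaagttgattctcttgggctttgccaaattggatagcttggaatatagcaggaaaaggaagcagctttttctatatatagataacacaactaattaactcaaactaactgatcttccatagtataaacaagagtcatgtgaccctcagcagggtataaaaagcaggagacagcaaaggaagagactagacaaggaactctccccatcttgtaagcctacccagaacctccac
Krtap27-1 (chr16:88671675-88671974, minus strand): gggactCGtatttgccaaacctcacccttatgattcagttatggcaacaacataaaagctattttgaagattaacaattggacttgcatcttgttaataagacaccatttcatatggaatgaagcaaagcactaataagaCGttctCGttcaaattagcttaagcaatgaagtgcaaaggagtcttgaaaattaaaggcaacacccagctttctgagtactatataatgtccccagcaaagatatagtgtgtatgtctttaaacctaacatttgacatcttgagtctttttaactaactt

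These 300 bases held 17 CG sites at Krt18, 2 at Krt42, 2 at Krt10, 4 at Krtap10-4, 1 at Krtap20-2, 0 at Krtap4-2 and 3 at Krtap27-1. RefSeq promoters were matched by gene identifier and chromosome for 84 members, 35 Krt, 46 Krtap and the 3 others. The start site lay within 100 bases of that of the probe for 83 of them. The median number of CG sites in these 300 bases was 5 for Krt and 2 for Krtap, beside 7 over the 32851 promoters of the RefSeq table. The letters TATAAA, the core of a TATA box, were searched on both strands and were present in 19 of 35 Krt promoters (54.3%) and in 37 of 46 Krtap promoters (80.4%), beside 13.6% of all promoters in that table. In the sequences above, TATAAA is present for all but Krt18 and Krtap27-1. A match of these letters is a description of the window and not a binding site.

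The Krt and Krtap promoters differed in CG sites and in level. The median number of CG sites in the whole 2200-base probe was 33 for Krt, from 11 at Krt76 (a keratin of the palate) to 64 at Krt18, and 15 for Krtap, from 4 at Krtap20-2 and Krtap4-9 to 35 at Krtap10-4. Over all promoters the median was 45. The GC content of the probes was 48.9% for Krt, 39.9% for Krtap and 48.0% over all promoters, as medians in GRCm38.p6, and the ratio of observed to expected CG sites was 0.239, 0.181 and 0.358 in the same order. Both families were thus poorer in CG than promoters in general for their base composition, and Krtap also held fewer G and C.

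In C57BL/6J controls the median level was 19.35 normalized read-pairs for Krt, 5.7 for Krtap and 5.0 over all promoters. In FVB/N controls it was 13.25 for Krt, 3.0 for Krtap and 3.0 over all promoters. Of 52 Krt promoters, 49 lay above the all-promoter median in C57BL/6J controls and 51 in FVB/N controls, whereas 30 and 25 of 51 Krtap promoters did. The 10% of all promoters with the highest level held 22 Krt (42.3%) in C57BL/6J controls and 24 (46.2%) in FVB/N controls, and 3 Krtap (5.88%) and 2 Krtap (3.92%).

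**Figure D1:**
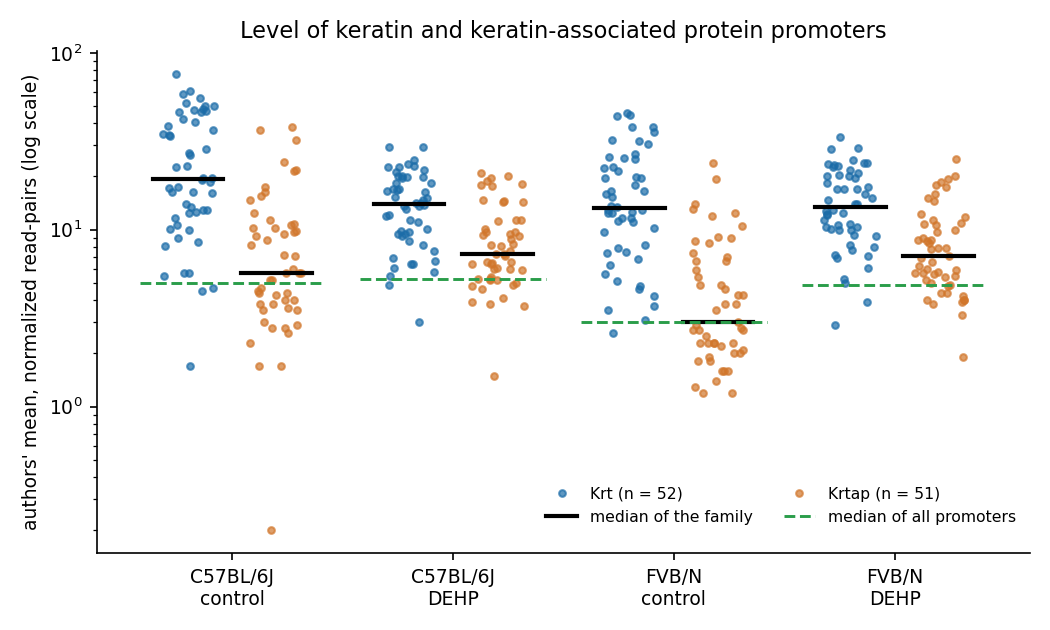
Authors' mean level (normalized read-pairs, log axis) of each Krt and Krtap promoter in the 4 groups, as points, with the median of each family as a black bar and the median of all promoters as a dashed line. Krt medians lie between 13.25 and 19.35 in the 4 groups, while Krtap medians lie between 3.0 and 7.3.

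The 3 keratin promoters with the highest mean over both control groups were Krt80, Krt42 and Krt35. Krt80, a type II keratin found in many epithelia, had a level of 76.3 (SD 29.2) in C57BL/6J controls and 35.9 (SD 12.6) in FVB/N controls. Krt42, a type I keratin, had 60.5 (SD 20) and 45.6 (SD 12.3), and Krt35, a hair keratin of the matrix and cuticle, had 58.4 (SD 13.4) and 44.3 (SD 7.4). The 3 lay at percentiles from 98.3 to 99.5 of all promoters in both strains. The lowest were Krt40 with 1.7 (SD 1.1) and 2.6 (SD 2.2), Krt83 with 4.7 (SD 2.0) and 3.1 (SD 4.0), and Krt6b with 5.5 (SD 2.5) and 3.5 (SD 4.5). Krt40 and Krt83 are named as hair keratins and Krt6b is a keratin induced by injury, so hair keratins stood at both ends of the order. The probe listed as Krt83 overlaps exons of Krt87 in GENCODE and the probe listed as Krt85 overlaps exons of Krt83, so these symbols follow an older naming.

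Among Krtap promoters, the highest were Krtap10-4, Krtap10-10 and Krtap3-1. Krtap10-4 had 38.2 (SD 17.4) in C57BL/6J controls and 23.8 (SD 21.5) in FVB/N controls, Krtap10-10 had 36.4 (SD 9.4) and 19.4 (SD 9.7), and Krtap3-1 had 32.0 (SD 8.7) and 13.1 (SD 9.7). All 3 encode proteins rich in cysteine. The lowest were Krtap20-2 with 0.2 (SD 0.5) and 1.3 (SD 1.1), Krtap6-5 with 1.7 (SD 1.1) and 1.2 (SD 1.2), and Krtap4-1 with 2.6 (SD 1.0) and 1.9 (SD 2.6). Means near 1 normalized read-pair with an SD of the same size cannot be told from each other at this depth.

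The members lay in 5 clusters, with 3 single promoters elsewhere. On chromosome 11 (mm10, 99243886 to 100271871) 47 members spanned 1028 kb, with 12 Krt from Krt222 to Krt40, then 20 Krtap, then 15 Krt from Krt33a to Krt42. On chromosome 15 (101369926 to 102028415) 25 Krt spanned 658.5 kb. The Krtap of chromosome 16 (88612080 to 89573183, 23 members), chromosome 7 (142175806 to 142303701, 5 members) and chromosome 10 (77718586 to 77836146, 3 members) formed clusters without keratins. Clusters are probes with at most 1 Mb between neighbours, and only Krtap14 and Krtap15 have probes that overlap, by 1137 bases.

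On chromosome 11 the level differed between the families and also along the cluster. In C57BL/6J controls the median was 18.25 for the 12 Krt before the Krtap genes, 8.45 for the 20 Krtap between them and 34.2 for the 15 Krt behind them, with 34, 16 and 29 CG sites as medians. In FVB/N controls the same medians were 12.15, 4.3 and 19.6. The Krt of chromosome 15 had 16.3 and 12.4, with 33 CG sites, so the 15 Krt at the end of the chromosome 11 cluster had the higher level with fewer sites.

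The Krtap clusters were unlike each other. The 3 promoters of chromosome 10 had medians of 36.4 in C57BL/6J controls and 19.4 in FVB/N controls, and 2 of them, Krtap10-4 and Krtap10-10, held 35 and 31 CG sites. The 23 of chromosome 16, where most glycine and tyrosine-rich members lie, had 4.7 and 2.7 with 14 CG sites. The 5 Krtap5 promoters of chromosome 7 had 3.8 and 2.1 with 10 CG sites. Within chromosome 11 a gap of 112.5 kb follows Krtap4-6. The 12 Krtap before it had a median of 15.15 in C57BL/6J controls (from 2.6 to 32.0) with 19 CG sites, and the 8 behind it had 4.85 (from 1.7 to 7.2) with 12 CG sites. This division was drawn after the levels were seen.

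**Figure D2:**
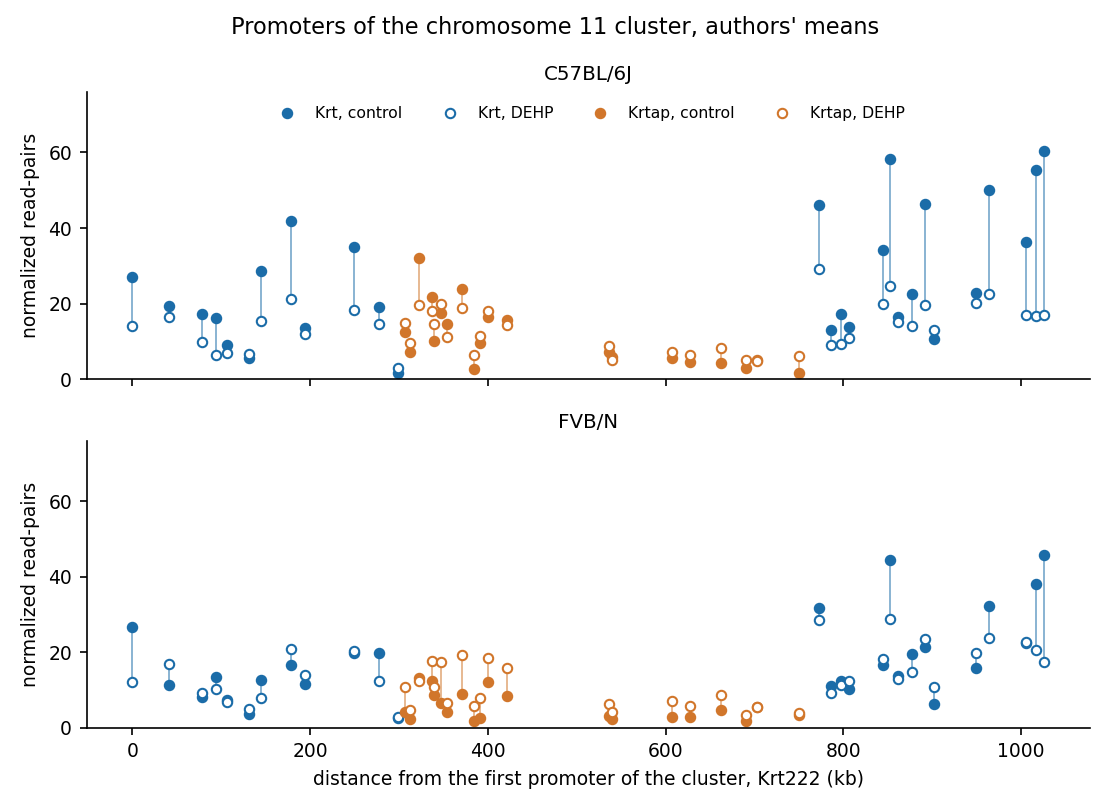
Authors' mean level (normalized read-pairs) of the 47 promoters of the chromosome 11 cluster against the distance from its first promoter in kb, for C57BL/6J (top) and FVB/N (bottom); filled points are controls, open points DEHP, and a line joins both values of a promoter. The median control level in C57BL/6J is 18.25 and 34.2 for the Krt promoters at the 2 ends and 8.45 for the Krtap promoters between them, and the highest promoter, Krt42 at the far end with 60.5 and 45.6 in controls, has 17.0 and 17.4 after DEHP.

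Number of CG sites and level went together in Krtap more than in Krt. Across the 51 Krtap promoters, Pearson's r between CG sites and level was 0.65 in C57BL/6J controls (Spearman's rho 0.53) and 0.76 in FVB/N controls (rho 0.72). Across the 52 Krt promoters it was 0.32 (rho 0.32) and 0.30 (rho 0.29). These values describe promoters that share libraries and clusters and are not independent. Control levels in the 2 strains had r of 0.91 in each family.

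Within classes of CG sites, the Krt median stood above that of other promoters in each class that holds Krt. The Krtap median stood above that of other promoters in 1 class in both strains and below it in another. At 21 to 40 CG sites the Krtap median stood below it in C57BL/6J controls and above it in FVB/N controls. With 21 to 40 CG sites, 35 Krt had a median of 26.6 in C57BL/6J controls and 15.9 in FVB/N controls, 15 Krtap had 11.4 and 9.0, and 5228 promoters outside both families had 14.2 and 7.7. With 11 to 20 CG sites, 8 Krt had 13.45 and 10.6, 25 Krtap had 5.2 and 2.7, and 2899 others had 6.9 and 3.7. With 1 to 10 CG sites there were only Krtap, whose 11 promoters had 3.8 and 2.0 beside 1.4 and 1.1 for 1995 others. Over 40 CG sites there were 9 Krt, with 19.5 and 13.5 beside 4.2 and 2.6 for 12252 others. These others are mostly the CG-dense promoters that sperm leaves free of methylation. The 9 Krt held a median of 46 CG sites and the others of 68, so they were not matched within this class. Per CG site, the median level in C57BL/6J controls was 0.813 for Krt, 0.433 for Krtap and 0.138 for all promoters.

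**Figure D3:**
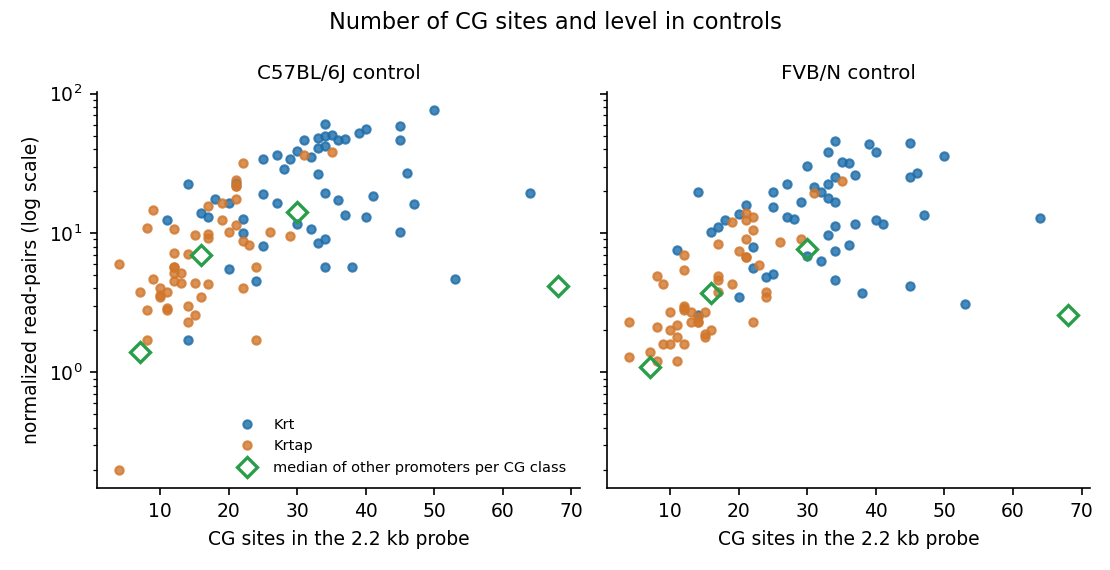
Level (normalized read-pairs, log axis) against the number of CG sites in the probe for each Krt and Krtap promoter in controls of both strains, with diamonds at the median of other promoters in each of 4 classes of CG sites. The level of the other promoters is lower over 40 CG sites (4.2 in C57BL/6J controls) than from 21 to 40 (14.2). The 9 Krt over 40 CG sites have a median level of 19.5, with a median of 46 sites beside 68 for the others.

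Ordered by role, basal keratins had the highest median level, although single promoters of other lists were higher. Krt80, of the simple epithelial list, had 76.3 in C57BL/6J controls. The 3 basal keratins Krt5, Krt14 and Krt15 had a median of 50.1 in C57BL/6J controls (from 46.5 to 52.0) and 32.1 in FVB/N controls (from 21.5 to 43.7). The 8 inner root sheath keratins, which form the sheath that moulds the hair, had the lowest, 12.8 (from 5.7 to 17.3) and 8.05 (from 3.7 to 13.5), with as many CG sites as the basal keratins (35). The highest inner root sheath promoter thus lay below the lowest basal promoter in each strain. The medians of the other lists in C57BL/6J controls lay between these, with 26.6 for 5 stress-induced keratins, 22.9 for 5 suprabasal keratins, 22.6 for 7 mucosal and corneal keratins, 19.2 for 15 of 16 listed hair keratins and 13.5 for 7 simple epithelial keratins.

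Partners of a filament did not always have like levels. Krt5 and Krt14, partners in basal cells, had 52.0 (SD 20) and 50.1 (SD 14.6) in C57BL/6J controls. Krt1 and Krt10, partners in the suprabasal layers, had 46.7 (SD 13.8) and 28.7 (SD 4.6). Krt8 and Krt18, partners in simple epithelia, had 8.5 (SD 3.0) and 19.5 (SD 8.9), with 33 CG sites at Krt8 and 64 at Krt18.

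The comparison of DEHP with control asks whether exposure before birth went with another level in adult sperm. In C57BL/6J, the deposited level after DEHP was lower for most Krt promoters and higher for most Krtap promoters than in controls. The median log2 ratio was −0.64 for Krt and 0.27 for Krtap, beside −0.10 over all promoters, and with equal sums of the group means −0.10 for Krt and 0.75 for Krtap, beside 0.33. Of the Krt promoters, 43 of 52 had a lower mean after DEHP (82.7%, beside 54.8% of all promoters), and the log2 ratio of 16 was below −1 (30.8% beside 10.7%). Of the Krtap promoters, 33 of 51 had a higher mean (64.7%, beside 43.5% of all promoters) and 5 had a log2 ratio above 1 (9.80% beside 5.09%). These counts depend on the scaling. With equal sums, 4 Krt (and 498 of all promoters) had a ratio below −1 and 14 Krtap (and 3310 of all) had one above 1. With equal medians, 17 Krt (and 2827 of all) had one below −1, but only 1 Krtap (and 861 of all) had one above 1, so that Krtap were then not more often above 1 than all promoters. The level after DEHP was 13.95 for Krt and 7.3 for Krtap, as medians, so the families were nearer to each other than in controls.

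In no member were the C57BL/6J groups separated on the deposited scale. Over all promoters, 0.249% were separated with DEHP above control and 1.42% with DEHP below control, so 0 of 106 members is near this background. The nearest was Krtap13-1, just outside the limit, with 4.0 (SD 0.6) in controls and 6.0 (SD 1.3) after DEHP. Control libraries of Krtap13-1 can lie between 2.79 and 5.21 and DEHP libraries between 3.54 and 8.46, so they may overlap. With equal sums of the group means it was separated, with DEHP above control (log2 ratio 0.93), as were 1.02% of all promoters.

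In FVB/N, the median log2 ratio was 0.04 for Krt and 0.85 for Krtap, beside 0.35 over all promoters. The mean was higher after DEHP for 28 of 52 Krt and for 48 of 51 Krtap promoters, that is for 53.8% and 94.1% beside 69.1% of all promoters. The log2 ratio was above 1 for 2 Krt (3.85%) and 18 Krtap (35.3%), beside 14.4% of all promoters. With equal medians it was above 1 for 0 Krt and 4 Krtap, beside 867 of 22480 promoters, and the Krtap median was 0.28 beside −0.18 over all promoters. Relative to the median of all promoters, the Krt median was thus lower and the Krtap median higher in both strains, with differences of −0.54 and 0.37 in C57BL/6J and of −0.31 and 0.50 in FVB/N. The sign of the Krt median in FVB/N taken alone depends on the scaling, since it was −0.05 with equal sums of the group means and −0.64 with equal medians.

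Krt42 was the 1 member whose FVB/N groups were separated, beside 0.774% of all promoters with DEHP above control and 0.859% with DEHP below control. The level of Krt42 fell from 45.6 (SD 12.3) in FVB/N controls to 17.4 (SD 3.3) after DEHP, a log2 ratio of −1.34. With equal medians of the group means, 6 members were separated with DEHP below control in FVB/N, which were Krt42, Krt85, Krt222, Krt86, Krt35 and Krtap22-2, beside 3.25% of all promoters under that scaling. On the deposited scale Krt42 was only just inside the limit, since control libraries can reach down to 23.46 and DEHP libraries up to 23.44. In C57BL/6J the means of Krt42 were 60.5 (SD 20) and 17.0 (SD 5.7), with a log2 ratio of −1.77, and the ranges from 24.6 to 96.4 and from 6.66 to 27.3 met over a short stretch. Just outside the limit in FVB/N was Krtap19-9b, with 2.7 (SD 1.5) in controls and 10 (SD 2.5) after DEHP. The Krt42 probe (chromosome 11, 100269672 to 100271871, minus strand) holds 34 CG sites and overlaps exons of Krt42, and 97.2% of its 49-base words were unique in the genome. The neighbouring Krt17, a keratin induced by injury whose probe also overlaps exons of Krt42, had 38.1 (SD 17.7) and 20.5 (SD 4.6) in FVB/N and 55.3 (SD 23.9) and 16.8 (SD 8.5) in C57BL/6J, which were not separated.

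**Figure D4:**
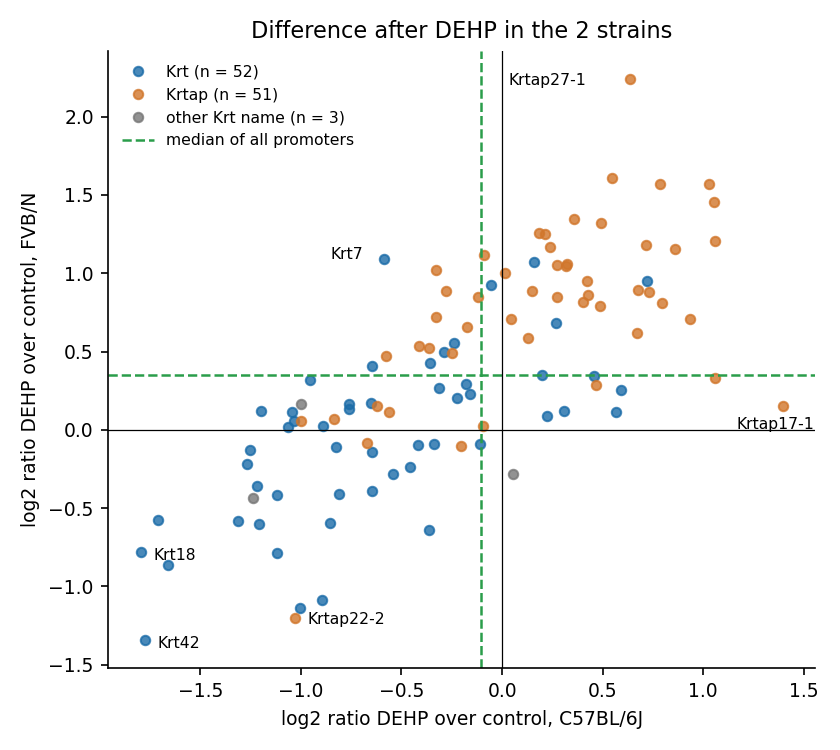
Log2 ratio of the means, DEHP over control, of each member in FVB/N (vertical axis) against C57BL/6J (horizontal axis), with dashed lines at the medians of all promoters (−0.10 and 0.35) and thin lines at 0. Krt promoters (medians −0.64 and 0.04) lie mostly below and left of the dashed lines and Krtap promoters (medians 0.27 and 0.85) above and right of them, with Krtap22-2 among the Krt promoters.

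Promoters that stood low after DEHP in one strain tended to stand low in the other. Across Krt promoters the 2 log2 ratios had r of 0.67 (rho 0.68, n = 52), and across Krtap promoters 0.58 (rho 0.53, n = 51), over promoters that share clusters and within submissions that hold both strains. Of the members, 42 Krt (80.8%) and 38 Krtap (74.5%) lay on the same side of the all-promoter median in both strains, beside 68.6% of all promoters.

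The ratio differed between classes of CG sites and of level, outside the families as well. From 1 to 40 CG sites it was lower in each higher class of other promoters, but not over 40. Outside the families, the median log2 ratio in C57BL/6J was 0.61 for promoters with 1 to 10 CG sites, 0.12 with 11 to 20 and −0.41 with 21 to 40. Krtap had 0.36, 0.32 and −0.33 in these classes, and Krt had −0.38 with 11 to 20 and −0.65 with 21 to 40. In FVB/N the other promoters had 0.75, 0.70 and 0.23, Krtap had 0.95, 0.88 and 0.29, and Krt had 0.01 and 0.09 in the last 2 classes. Over 40 CG sites, Krt had −0.90 and −0.36 beside −0.16 and 0.25, but with a median of 46 sites beside 68 for the others. In both classes with members of each family, the median of Krt was below that of Krtap, but with 21 to 40 CG sites the Krt held a median of 33 sites and the Krtap of 22, so the families were not matched within it.

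Promoters were also compared at a like level, where the Krt median was above that of the others in C57BL/6J and on either side of it in FVB/N. Among promoters with a mean of over 20 over the 4 groups, 20 Krt had median log2 ratios of −1.05 for C57BL/6J and −0.31 for FVB/N, beside −1.13 and −0.44 for 1586 promoters outside the families. From 10 to 20, 19 Krt had −0.42 and −0.09 beside −0.64 and 0.12 for 3740 others. From 5 to 10, 11 Krt had 0.16 and 0.35 beside −0.18 and 0.50 for 5239 others. Krtap stood above the others at a like level, with 0.0046 and 0.72 for 10 promoters from 10 to 20, with 0.11 and 0.83 for 20 promoters from 5 to 10, and with 0.49 and 0.88 for 19 promoters under 5 beside 0.22 and 0.45. These Krtap promoters had fewer CG sites than the others of the class, with medians of 21, 14.5 and 11 beside 30, 46 and 54. How much CG sites and level contribute to the ratios was not tested.

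By cluster, 2 of the 3 Krtap of chromosome 10 had ratios near those of the keratins. The log2 ratio was −0.83 for C57BL/6J and 0.07 for FVB/N at Krtap10-4, and −1.0 and 0.06 at Krtap10-10, whereas Krtap12-1, with 11 CG sites, had 0.54 and 1.61. Krtap10-10 had a level of 36.4 (SD 9.4) in C57BL/6J controls and 17.7 (SD 7.3) after DEHP. The Krtap of chromosomes 11, 16 and 7 had 0.23, 0.49 and 0.32 in C57BL/6J, with 0.81, 0.88 and 0.95 in FVB/N. The Krt of chromosome 11 had −0.56 before and −0.76 behind the Krtap genes in C57BL/6J, with 0.07 and −0.11 in FVB/N, and the Krt of chromosome 15 had −0.58 and 0.11. In the chromosome 11 cluster, then, medians of opposite sign in C57BL/6J on the deposited scale lay within 1028 kb of DNA.

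By role, basal keratins had the lowest median ratios. Their median log2 ratio was −1.12 for C57BL/6J and −0.42 for FVB/N, and all 3 lay below the all-promoter median in both strains. These medians are near those of promoters outside the families with a mean of over 20, the level class of all 3, which were −1.13 and −0.44. Krt14 had 50.1 (SD 14.6) in C57BL/6J controls and 22.5 (SD 9.6) after DEHP, and 32.1 (SD 14.3) and 23.8 (SD 3.9) in FVB/N. Krt5 had 52.0 (SD 20) and 23.4 (SD 10.8), and 43.7 (SD 14.1) and 24.9 (SD 5.0). The medians of the other lists ranged from −0.95 for mucosal and corneal keratins to −0.29 for suprabasal keratins in C57BL/6J. In FVB/N they ranged from −0.11 for hair keratins to 0.41 for suprabasal keratins. Single promoters of other lists stood below every basal keratin in C57BL/6J. Among them were Krt18 (−1.80) and Krt80 (−1.71) of the simple epithelial list and Krt17 (−1.66) of the stress-induced list. No promoter of a role list was separated between DEHP and control in either strain on the deposited scale. With DEHP above control, the shares of all promoters were 0.249% (C57BL/6J) and 0.774% (FVB/N). With DEHP below control, they were 1.42% (C57BL/6J) and 0.859% (FVB/N). A count of 0 in these lists is near this background. With equal medians, where 3.25% of all promoters were separated with DEHP below control in FVB/N, the hair keratins Krt85, Krt86 and Krt35 were too.

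Some members stood far from their family, and were chosen after their values were seen. Krt18, which pairs with Krt8 in simple epithelia, had the lowest Krt ratio in C57BL/6J (−1.80), with 19.5 (SD 8.9) in controls and 4.9 (SD 1.2) after DEHP, and 12.9 (SD 5.0) and 7.1 (SD 3.0) in FVB/N. Krt8 itself had 8.5 (SD 3.0) and 10.1 (SD 5.5) in C57BL/6J and 9.7 (SD 10.4) and 10.4 (SD 1.0) in FVB/N. On the deposited scale, Krtap22-2 was the only Krtap with a log2 ratio below −1 in C57BL/6J (−1.03), beside 10.7% of all promoters. It was the only one in FVB/N as well (−1.20), beside 2.68% of all promoters. With equal sums 0 Krtap and with equal medians 2 Krtap had a log2 ratio below −1 in C57BL/6J. The levels of Krtap22-2 were 8.8 (SD 4.0) and 3.8 (SD 2.2) in C57BL/6J and 10.5 (SD 3.4) and 4.0 (SD 1.4) in FVB/N.

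At the other end, Krtap27-1 had the highest ratio in FVB/N (2.24), with 1.6 (SD 1.5) in controls and 11.3 (SD 4.5) after DEHP, and 5.7 (SD 2.0) and 9.4 (SD 3.7) in C57BL/6J. Krtap17-1, a single-copy gene at the border of the Krtap block with Krt33a, had the highest ratio in C57BL/6J (1.39), with 1.7 (SD 1.8) and 6.1 (SD 2.8), but 3.5 (SD 3.0) and 4.0 (SD 1.3) in FVB/N. Among Krt promoters, Krt6b had the highest ratio in C57BL/6J (0.72), with 5.5 (SD 2.5) and 9.7 (SD 3.4). Krt7, a keratin of ducts and glands, had the highest in FVB/N (1.09), with 4.2 (SD 4.1) and 10.1 (SD 4.2). In C57BL/6J, Krt7 had 10.1 (SD 4.9) in controls and 6.4 (SD 2.3) after DEHP, so its ratio had the opposite sign there on the deposited scale. The groups of each of these promoters may overlap.

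**Figure D5:**
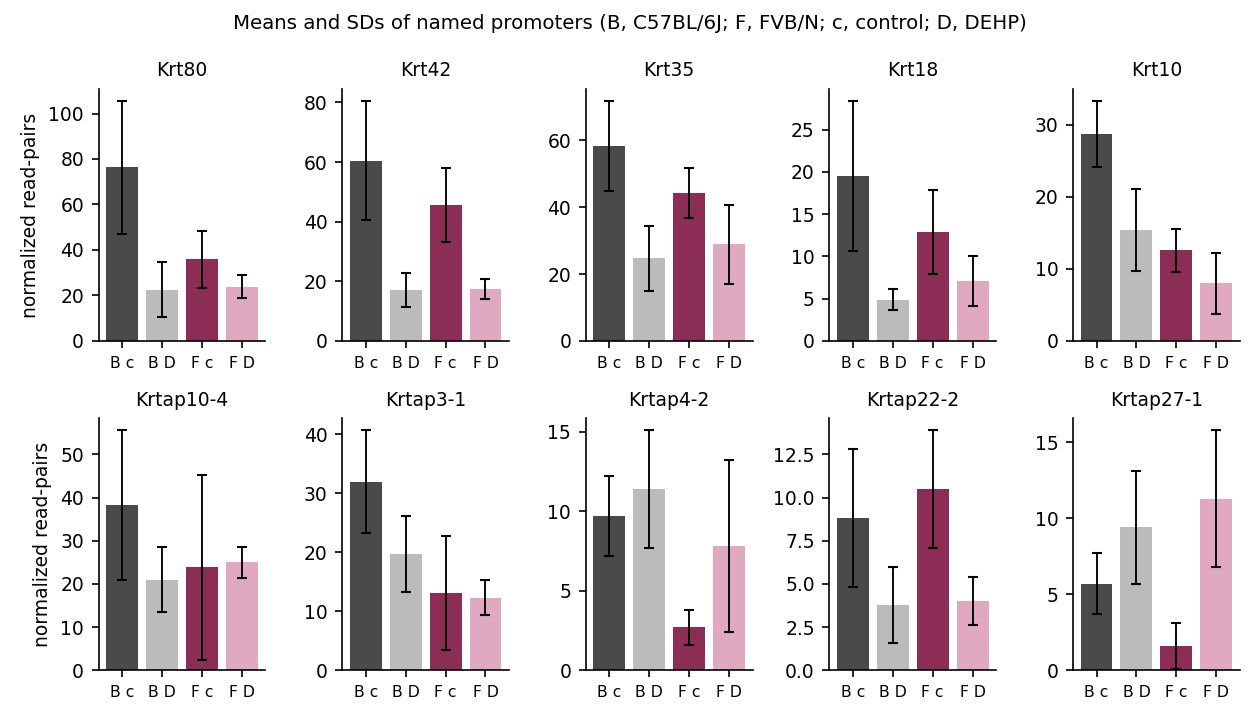
Authors' mean level (bars, normalized read-pairs from 0) and SD over 5 libraries (error bars, stopped at 0) of 10 promoters in C57BL/6J (B) and FVB/N (F), control (c) and DEHP (D), each panel with its own scale. Krt42 stands at 60.5 and 45.6 in controls and at 17.0 and 17.4 after DEHP, whereas Krtap27-1 stands at 5.7 and 1.6 in controls and at 9.4 and 11.3 after DEHP.

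Between strains, control levels were higher in C57BL/6J for most members, as for most promoters. The median log2 ratio of C57BL/6J over FVB/N was 0.53 for Krt and 0.60 for Krtap, beside 0.54 over all promoters, and with equal sums of the group means the all-promoter median was 0.0007. Krt10 and Krtap4-2 were separated, both with C57BL/6J above, that is 2 of 106 members beside 1.06% of all promoters with C57BL/6J above FVB/N and 0.0267% with C57BL/6J below. Krt10, which pairs with Krt1 in the upper epidermis, had 28.7 (SD 4.6) in C57BL/6J and 12.6 (SD 3.0) in FVB/N, so that no C57BL/6J library can lie below 20.3 and no FVB/N library above 18.1. Krtap4-2 had 9.7 (SD 2.5) and 2.7 (SD 1.1), with limits of 5.09 and 4.81. With equal sums or equal medians of the group means, neither was separated, and the share of all promoters with C57BL/6J above was 0.307% and 0.289%. Just outside the limit, Krtap16-1 had 4.7 (SD 1.1) and 1.6 (SD 0.7), over a probe that overlaps exons of Krtap19-2 in GENCODE.

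The authors' annotation gives the number of known variants between both strains in each probe. In these families, variants lay almost only on chromosome 11. Of the 27 Krt and 20 Krtap promoters there, 8 and 12 held variants, whereas 0 of 25 Krt on chromosome 15, 1 of 23 Krtap on chromosome 16 and none of the Krtap of chromosomes 7 and 10 did. Over all promoters 10356 of 22480 held variants. Krt10 held 27, which was the most of any Krt, and Krtap4-2 held 7.

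Krtap promoters with variants had a higher median ratio between strains than those without. The median log2 ratio of C57BL/6J over FVB/N in controls was 1.23 for the 13 Krtap with variants and 0.58 for the 38 without, and after DEHP it was 0.41 and −0.07. Among the 13 were Krtap3-2, with 29 variants, at 7.1 (SD 2.4) in C57BL/6J controls and 2.3 (SD 2.4) in FVB/N controls, and Krtap9-3, with 15 variants, at 14.7 (SD 10.4) and 4.3 (SD 4.5). The 8 Krt with variants had 0.21 in controls beside 0.56 for the 44 without, while after DEHP it was 0.12 beside −0.07, so the order was not the same. Of the 13 Krtap, 12 lie in 1 cluster, and the part of the variants in the difference was not tested.

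After DEHP, the strains were closer on the deposited scale. The median log2 ratio of C57BL/6J over FVB/N was −0.05 for Krt and 0 for Krtap, beside 0.04 over all promoters, and no member was separated, where 0.307% of all promoters were separated with C57BL/6J above and 0.0311% with C57BL/6J below. With equal sums the all-promoter median was 0.0007 in controls and 0.02 after DEHP, that of Krt −0.07 and −0.08, and that of Krtap 0.09 and −0.02, so the approach of the strains depends on the scaling. Krt10 had 15.4 (SD 5.7) in C57BL/6J and 8.0 (SD 4.2) in FVB/N, and Krtap4-2 had 11.4 (SD 3.7) and 7.8 (SD 5.4). The smallest overlap in normalized read-pairs was that of Krtcap2, a low promoter with 1.8 (SD 1.3) and 0.4 (SD 0.5), whose FVB/N range lies inside its C57BL/6J range. The highest Krt ratio after DEHP was that of Krt10 (0.87), and the highest Krtap ratio that of Krtap3-2 (0.88), with 9.7 (SD 2.8) and 4.8 (SD 2.5).

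The DEHP ratio was higher in FVB/N than in C57BL/6J for 44 of 52 Krt (84.6%) and 45 of 51 Krtap (88.2%), beside 77.1% of all promoters. The difference of the 2 log2 ratios had a median of 0.60 for Krt and 0.73 for Krtap, beside 0.50 for all promoters, and was not tested. It depends on the scaling, since with equal sums the ratio was higher in FVB/N for 25 of 52 Krt and 31 of 51 Krtap, beside 48.9% of all promoters, and the medians of the difference were −0.02 and 0.15, beside −0.02 for all promoters. None of the 22480 promoters, and so no member, was separated in opposite directions in the 2 strains.

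Genes that work with keratins were read from lists, not all of which resembled the keratins. The 15 other intermediate filament genes, with a median of 64 CG sites, had median log2 ratios of −0.54 for C57BL/6J and 0.12 for FVB/N. These ratios were near those of Krt. None of the 15 was separated between DEHP and control. Of all promoters, from 0.249% to 1.42% were separated, depending on strain and direction, so none of 15 is near this background. Des, the desmin of muscle, had 23.3 (SD 7.6) in C57BL/6J controls and 9.1 (SD 2.1) after DEHP. The 39 of 43 listed genes of the cornified envelope and of epidermal differentiation, with a median of 8 CG sites, had 0.47 and 0.84, near those of Krtap. Of these, 1 was separated, beside 0.249% of all promoters with DEHP above control in C57BL/6J. This was Sprr2f, a small proline-rich protein of the envelope, which rose from 1.4 (SD 1.5) to 6.8 (SD 1.3) in C57BL/6J and had 3.2 (SD 3.0) and 4.4 (SD 2.2) in FVB/N.

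The 15 desmosome genes, whose proteins anchor keratin filaments at the cell border, had median log2 ratios of −0.15 and 0.81. Of these, Dsc1, a cadherin of the upper epidermis, was separated in FVB/N and rose from 1.9 (SD 1.4) to 8.2 (SD 1.2), 1 of 15 beside 0.774% of all promoters with DEHP above control. Pkp3 (plakophilin 3) had the highest level of the list, with 99.1 (SD 35.1) in C57BL/6J controls and 31.6 (SD 11.7) after DEHP. The 7 regulators of the hair follicle had −0.56 and −0.16, and none was separated. Since only 0.249% to 1.42% of all promoters were separated, by strain and direction, none among 7 says little about these genes.

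Of the 3 members with another name, Krtcap2 was low in each group, while Krtcap3 and Krtdap had levels and ratios in the range of Krt. Krtcap2, a subunit of the enzyme that attaches N-linked sugars, has 88 CG sites and had levels from 0.4 to 1.8 in the 4 groups. Krtcap3, a keratinocyte-associated membrane protein, has 60 CG sites and had 24.6 (SD 11.4) in C57BL/6J controls, 11.8 (SD 4.2) after DEHP, 13.1 (SD 9.8) in FVB/N controls and 14.8 (SD 4.7) after DEHP. Krtdap, a secreted protein of differentiating keratinocytes, has 40 CG sites and had 40.7 (SD 12.8), 16.7 (SD 7.0), 26.6 (SD 8.1) and 19.4 (SD 4.8). The log2 ratios of DEHP over control were −1.0 for C57BL/6J and 0.16 for FVB/N at Krtcap3, and −1.24 and −0.44 at Krtdap.

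Expression in cells of the testis was added by the authors from an independent microarray dataset, for which the paper gives decile limits but no unit. It was read as percentiles among 17133 genes. Probes of different genes differ in signal, so these percentiles rank array values and do not compare expression between genes. The 36 Krtap genes with a value had medians between 6.95 and 10.9 in the 6 cell and tissue samples, and the 47 Krt genes between 25.5 and 32.5. Among Krt and Krtap, the highest array percentile was 93.2, for Krt18 in Sertoli cells, the somatic cells that support spermatogenesis. Krt8 had 86.4 there, and Krtcap2 stood above both at 95.3. In spermatids, Krt18 stood at 39 and Krt42 at 77.8. Of the array values in spermatids, those of 14 of 47 Krt and 2 of 36 Krtap lay above the median, which is no ranking of their expression.

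The share of each probe on which reads can be placed was read from the genome. Pairs with several positions were discarded by the authors, and the members include close copies. Of 49-base words in the probes, sampled every 20 bases, the median share that was unique in GRCm38.p6 was 99.1% for Krt and 96.3% for Krtap. The lowest Krtap was Krtap5-2 with 81.5%, and the lowest Krt were Krt16 and Krt2 with 86.1% each, so most of each member could be read. Krt16, a keratin of injured skin, had 36.4 (SD 8.7) in C57BL/6J controls and 16.9 (SD 5.7) after DEHP.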

How the data were processed

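Methylated fragments of sperm DNA were captured and sequenced in 20 libraries. The authors placed pairs of reads on mm10 by Bowtie 0.12.7, discarded those with several positions, without CpG or too far apart, counted the rest in each promoter probe and made counts comparable by edgeR. The deposited signal is a mean and an SD for each group, rounded to 1 decimal. Numbers of CG sites and of variants between strains are the authors' annotations, and the expression score of each gene was deposited by the authors from an independent dataset. Fold changes, p-values and FDR of the authors' comparisons are in the same table and were not used. Since values of single libraries were not used, the tests planned for them could not be run. The authors give depth as an average for each submission, which was higher for DEHP than for control libraries.

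From the deposited values were computed log2 ratios (pseudocount 1), medians over families, clusters, lists, CG classes and level classes, and the separation of groups (mean ± 1.789 SD, widened by 0.05). Sequence came from GRCm38.p6, where 102 of 106 members had the deposited number of CG sites, and exons from GENCODE. Named promoters were the 3 highest and lowest in controls and those with the most and fewest CG sites per family, separated promoters, those just inside and outside the limit, and members of role lists. Members and lists were chosen with earlier results of these data known. Alternatives were a pseudocount of 0.1, group means set to equal sums, group means set to equal medians, and a mean of at least 1. Python 3.11.15 with numpy 2.4.6, pandas 2.3.3, numba 0.67.0, pysam 0.24.0 and matplotlib 3.10.9 was used.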

Additional observations from a re-analysis of the deposited data

How the results depend on the processing

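Under a pseudocount of 0.1, equal sums, equal medians and a mean of at least 1, the family medians of DEHP over control less the median of all promoters lay between −0.56 and −0.44 for Krt and between 0.36 and 0.43 for Krtap in C57BL/6J, and between −0.46 and −0.31 for Krt and between 0.46 and 0.56 for Krtap in FVB/N. Not centred, the Krt median in FVB/N was 0.04 as deposited, −0.05 with equal sums and −0.64 with equal medians, and that in C57BL/6J was −0.10 with equal sums. The Krtap median for C57BL/6J was 0.27 as deposited, 0.75 with equal sums and 0.19 with equal medians, and for FVB/N 0.85, 0.79 and 0.28. Those 2 scalings shift the ratios of a strain by like but not equal amounts, so differences from all promoters are largely kept by construction. That of Krt in FVB/N still moved from −0.31 as deposited to −0.46 with equal medians. The scalings move the median of all promoters to 0.33 and −0.16 in C57BL/6J and to 0.29 and −0.18 in FVB/N. Medians not centred and counts between strains were added after the data were seen. Counts of separated promoters moved in 7 comparisons of a result with an alternative and did not in 23. With equal medians, 5 Krt (Krt42, Krt85, Krt222, Krt86 and Krt35) and 1 Krtap (Krtap22-2) were separated with DEHP below control in FVB/N, in place of 1 and 0 (3.25% of all promoters, in place of 0.859%), and with equal sums 1 Krtap (Krtap13-1) was separated with DEHP above control in C57BL/6J, in place of 0 (1.02% of all, in place of 0.249%). Between control groups, 0 Krt and 0 Krtap were separated with C57BL/6J above FVB/N under either scaling, in place of 1 and 1. The cause was not tested. No replicate could be left out, because the values are group means. No paired analysis was run, because the groups hold different animals. Depth of single libraries was not used here, so what it limits could not be computed.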

Other observations

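Over all promoters, too, the ratio after DEHP was lower at the highest levels. Promoters outside both families with a mean of under 5 over the 4 groups had a median log2 ratio of 0.22 for C57BL/6J and 0.45 for FVB/N, while those with a mean of over 20 had −1.13 and −0.44. The SD was a smaller share of the mean in Krt than over all promoters, 0.365 against 0.489 in C57BL/6J controls and 0.452 against 0.811 in FVB/N controls, as medians. Krt levels were also higher. With 21 to 40 CG sites the shares were closer in C57BL/6J controls, 0.345 for Krt and 0.374 for other promoters. In FVB/N controls they were 0.465 and 0.647.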
